A study of Drosophila melanogaster with 12 samples.

Results

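The Drosophila lysozyme family measured here comprised LysB, LysC, LysD, LysE, LysP, LysS and LysX. These are 7 of the 10844 genes that were the only gene named for a probe set on the array. They were chosen by symbol from the array's annotation, and each had 1 probe set, so that the family took 7 of 13966 tested probe sets. The family was picked because several of its signals had already been seen to differ between genotypes in these data, so its genotype differences are given as a description, with no test. LysB, LysC, LysD and LysE were each measured by a probe set whose name ends in _f_at, which marks probes that other members of a gene family can share, while LysP, LysS and LysX had gene-specific probe sets. Signal at a family-shared probe set may therefore come from more than 1 of the genes, and these 4 probe sets are not independent of each other.

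Total RNA of whole Drosophila melanogaster was hybridised to a 1-colour Affymetrix array, with 3 arrays for each of 4 groups and 5 male and 5 female flies behind each array. The groups were S284Y at 30C, S284Y at 25C, WT (wild type) at 30C and WT at 25C. S284Y flies carried a mutation of dU2AF50, the large subunit of the U2AF splicing factor (gene U2af50), for which 25C is permissive and 30C restrictive. The labels do not give the genetic background of the 2 lines, so the mutation and the background of its line cannot be told apart. Nothing in the labels says that replicates were separate cultures, so p-values measure only the spread between these samples. The group of each array was taken from its title, and the descriptions of the 3 WT 30C arrays instead read 25C. U2af50 itself had a log2 difference between S284Y and WT of 0.21 at 30C (limma adjusted p = 0.802) and of 0.27 ± 0.188 (SE) at 25C (adjusted p = 0.531). The array measures its level and not the mutation, so this checks no label.

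Lysozymes cut the glycan strands of bacterial peptidoglycan. In vertebrates and insects they are known both as antibacterial enzymes and, in animals that feed on microbes, as digestive enzymes. In Drosophila the 7 genes of this family, which encode chicken-type lysozymes, lie near each other on chromosome arm 3L. LysB, LysC, LysD, LysE and LysS are known as genes of the midgut, LysP as a gene of the adult salivary gland, and LysX as a gene expressed around metamorphosis. LysC is listed as a pseudogene in the RefSeq annotation (Release 6) used for names. U2AF binds the end of an intron ahead of the 3′ splice site and brings in the spliceosome.

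The values are linear signals that had been scaled before deposit, with trimmed means of 1000.12 to 1000.18 on the 12 arrays. S284Y 25C arrays 2 and 3 stood apart from the rest, with mean correlations to the other arrays of 0.866 and 0.840, against 0.910 to 0.925 for the remaining 10. Member results that rest on them are also given without one or both. Of 16 marker genes of yolk, ovary, testis, accessory gland, muscle, fat body and neurons, 12 were above the array median on all 12 arrays, while the neuronal genes elav and nSyb were above it on 0. Of the 16, Lsp2 of the fat body was lower in S284Y than in WT at both temperatures (-2.30 at 30C, adjusted p = 0.000378; -1.66 at 25C, adjusted p = 0.00569). Between temperatures in S284Y, Lsp2 (-1.59, adjusted p = 0.0102) and Act88F of flight muscle (-2.19, adjusted p = 0.00307) were lower at 30C, and the ovary genes osk (1.19, adjusted p = 0.0315) and bcd (1.12, adjusted p = 0.0396) higher. In WT, Act88F was also lower at 30C (-1.72, adjusted p = 0.0284). The remaining 12 did not pass in any contrast. The part of these shifts in the lysozyme signals was not tested. In RNA of whole flies, fewer cells of a type and less RNA per cell cannot be told apart. A signal depends on its probes, so no probe set's level is compared with another's.

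All 4 family-shared probe sets had far higher signals in S284Y than in WT flies at both temperatures. The probe set of LysC (143465_f_at) read 28423, 34419 and 33505 in the 3 arrays of S284Y at 30C, 40237, 93677 and 43284 in S284Y at 25C, 1244, 752 and 1077 in WT at 30C, and 2458, 2389.8 and 1772 in WT at 25C. The 4 groups of LysC did not overlap anywhere, and their order was S284Y 25C, S284Y 30C, WT 25C and WT 30C from high to low. In mean signal this was 32116 ± 3230 in S284Y and 1024 ± 250 in WT at 30C, and 59066 ± 30012 in S284Y and 2207 ± 378 in WT at 25C (SD, n = 3 each).

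LysD (143466_f_at) had the same order of group means as LysC. It read 25831, 31361 and 53597 in S284Y at 30C, 34578, 150347 and 47449 in S284Y at 25C, 1913, 1702 and 1933.5 in WT at 30C, and 3005, 2954 and 3346 in WT at 25C. The S284Y groups overlapped each other, and the WT groups did not. For LysB (143464_f_at) the signals were 34000.2, 33554 and 51749 in S284Y at 30C, 36744, 142083 and 51265 in S284Y at 25C, 4979, 4953 and 5968 in WT at 30C, and 9199.6, 7587 and 7499.5 in WT at 25C. LysE (143467_f_at) read 25785, 24226 and 31580.1 in S284Y at 30C, 26764, 80427 and 38912 in S284Y at 25C, 4539, 3534 and 4413.5 in WT at 30C, and 5226, 5919 and 5609 in WT at 25C. In LysB and LysE, as in LysD, the S284Y arrays at 30C overlapped those at 25C, and every WT array at 30C lay below every WT array at 25C. The highest of all 12 values of each family-shared probe set was S284Y 25C array 2.

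Of the gene-specific probe sets, LysP, the salivary gland gene, shared the pattern, and LysS and LysX did not. LysP (143468_at) read 1289, 1309.8 and 1087 in S284Y at 30C, 1425, 1865 and 2601 in S284Y at 25C, 218, 117 and 86.9 in WT at 30C, and 195, 229 and 356.5 in WT at 25C. Both S284Y groups of LysP lay above both WT groups, S284Y at 30C lay wholly below S284Y at 25C, and the WT groups overlapped. LysS (143469_at), a midgut gene, read 2399, 2404 and 1998 in S284Y at 30C, 3580.1, 7971 and 4251 in S284Y at 25C, 2857, 3253.5 and 3611 in WT at 30C, and 4462, 4791.5 and 3239 in WT at 25C. Every S284Y 30C array of LysS was below all 9 other arrays, whereas the other 3 groups overlapped one another. LysX (143470_at) read 465, 305 and 356 in S284Y at 30C, 455, 416 and 889 in S284Y at 25C, 479, 192.5 and 512 in WT at 30C, and 1131, 619 and 1210.3 in WT at 25C. For LysX the order of the means was WT 25C, S284Y 25C, WT 30C and S284Y 30C from high to low, each group overlapping the next in that order, and both 30C groups lay below WT at 25C.

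**Figure D1:**
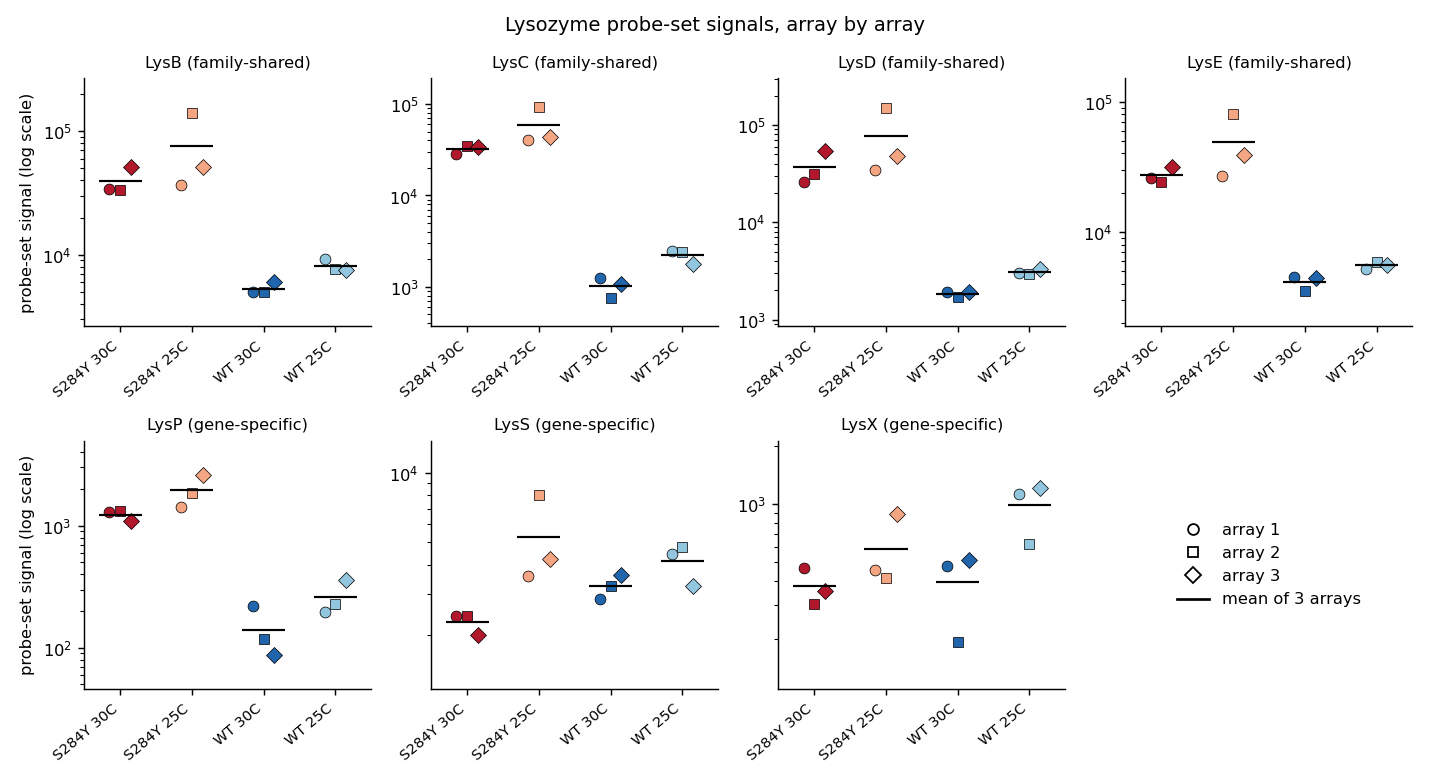
Signal of each lysozyme probe set on each of the 12 arrays (linear signal on a log axis), 1 panel per gene, with S284Y 30C, S284Y 25C, WT 30C and WT 25C from left to right; points are arrays and the line is the mean of 3. In LysB, LysC, LysD, LysE and LysP all 6 S284Y points lie above all 6 WT points, which is not so in LysS and LysX.

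On the scale used for comparison, log2(signal + 16), the S284Y minus WT difference of LysC was 4.97 ± 0.295 (SE; 31.4-fold) at 30C and 4.64 ± 0.295 (24.8-fold) at 25C. That of LysD was 4.24 ± 0.424 (18.9-fold) at 30C and 4.33 ± 0.424 (20.2-fold) at 25C. Each probe set's SE rests on 1 spread shared by all 4 groups, although their spreads were unequal. For LysD the SD of the log2 values was 0.545 in S284Y at 30C and 1.12 in S284Y at 25C. It was 0.101 in WT at 30C and 0.0971 in WT at 25C. LysB differed by 2.88 ± 0.382 (7.36-fold) at 30C and 3.0 ± 0.382 (7.98-fold) at 25C, and LysE by 2.70 ± 0.308 (6.51-fold) and 2.97 ± 0.308 (7.82-fold). LysC and LysD thus had larger differences than LysB and LysE at either temperature, which was not tested. LysP differed by 3.07 ± 0.348 (8.41-fold) at 30C and 2.84 ± 0.348 (7.17-fold) at 25C. LysS differed by -0.51 ± 0.261 at 30C and 0.27 ± 0.261 at 25C, and LysX by 0.02 ± 0.419 and -0.76 ± 0.419. The median was 3.56 at 30C and 3.66 at 25C over the 4 family-shared probe sets, 0.02 and 0.27 over the 3 gene-specific ones, and 0.0287 and 0.00396 over all 13966. The median of the 49 other probe sets with names ending in _f_at was 0.13 at 30C and -0.00300 at 25C.

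Counted by arrays alone, 5 of 7 members had every S284Y array above every WT array at 30C, as did 14.8% of all probe sets, and 1, LysS, had every S284Y array below, as did 13.3%. At 25C the same 5 had every S284Y array above, against 7.53% of all probe sets, and 0 had every S284Y array below, against 7.15%. All 6 S284Y arrays lay above all 6 WT arrays for those 5, LysB, LysC, LysD, LysE and LysP, against 1.06% of all probe sets. This held for 2 of the 49 other family-shared probe sets. Each of those 2 is annotated to more than 1 gene of the Jonah serine proteases, a family known from the gut, and cannot be assigned to one. They differed by 6.36 and 5.48 at 30C, more than any lysozyme probe set (adjusted p = 0.00728 and 0.0348), and by 3.57 and 2.88 at 25C (adjusted p = 0.164 and 0.310), and were picked out after their values were seen. The choice of the family rests on these values, and nothing is read from the counts. Without S284Y 25C arrays 2 and 3, which leaves 1 array in that group, the differences at 25C were 4.19 for LysC, 3.47 for LysD, 2.19 for LysB, 2.26 for LysE, 2.43 for LysP, -0.20 for LysS and -1.03 for LysX.

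**Figure D2:**
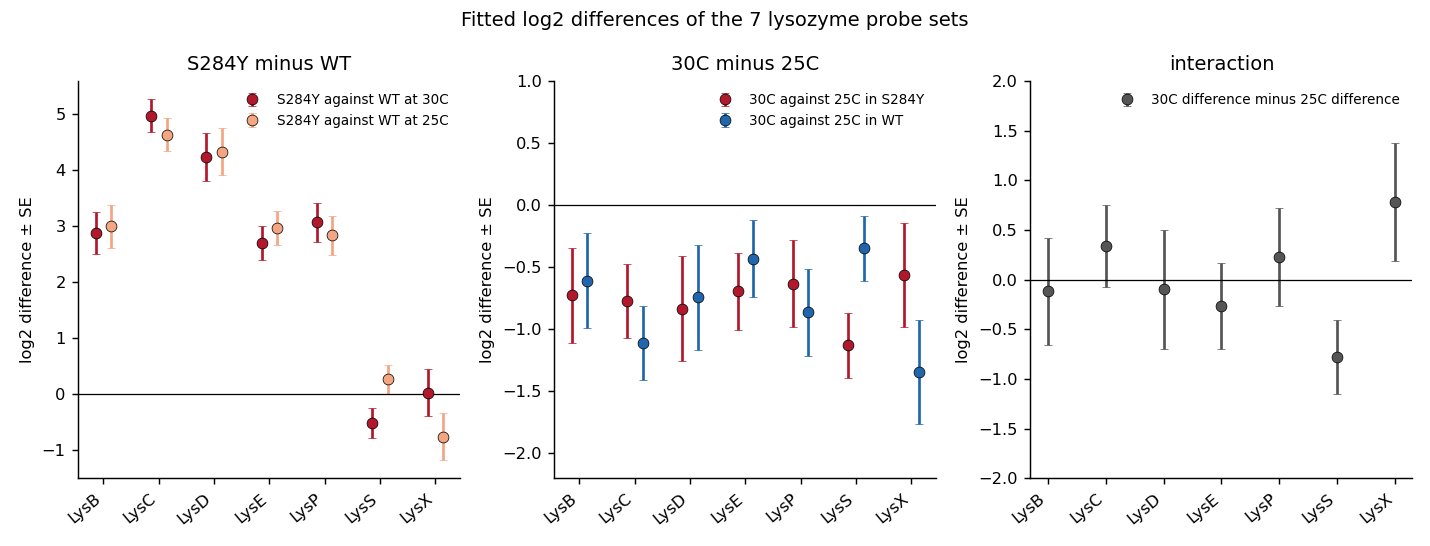
Log2 difference of each lysozyme probe set (x axis, log2(signal + 16) scale) with its standard error as the bar, for S284Y minus WT at 30C and 25C, 30C minus 25C in each genotype, and the interaction of both. S284Y minus WT lies between 2.70 and 4.97 for LysB, LysC, LysD, LysE and LysP, and 30C minus 25C is negative for all 7 in both genotypes.

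Temperature was not used to choose the family and was tested, but on the same arrays as the genotype differences. The tests are therefore not wholly free of the choice. High S284Y 25C arrays both raise the genotype difference at 25C and make 30C minus 25C in S284Y more negative. The signal of each of the 7 members was lower on average at 30C than at 25C in S284Y flies and again in WT flies, a sign shared by 35.2% of all probe sets. In S284Y, LysS fell by 1.13 ± 0.261 on the log2 scale (2.18-fold; 95% interval -1.69 to -0.56, adjusted p = 0.0387), with every array at 30C below every array at 25C. That was the 1 member of 7 that passed the threshold of 0.05, where 2.18% of all probe sets passed as lower and 1.82% as higher. The call was a narrow one: it was kept under 7 of 22 alternative settings, with adjusted p from 0.00612 to 0.299. It was lost, for example, without S284Y 25C array 2 (-0.78, adjusted p = 0.0531), without any 1 of the S284Y 30C arrays (0.0824 to 0.152) and with S284Y 25C arrays 2 and 3 left out (-0.66, adjusted p = 0.15).

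The other 6 members did not pass in S284Y. LysC had a difference of -0.77 ± 0.295 (adjusted p = 0.131) and LysE of -0.70 ± 0.308 (adjusted p = 0.179), and these and LysS were the 3 members with an unadjusted p under 0.05, as had 25.7% of all probe sets. LysD was at -0.84, LysB at -0.73, LysP at -0.63 and LysX at -0.56, with adjusted p of 0.233 to 0.417. Every 30C array lay below every 25C array for 3 of 7, LysC, LysP and LysS, against 13.4% of all probe sets, and above for 0, against 12.9%. These differences turn on the arrays that stood apart: with S284Y 25C arrays 2 and 3 left out, LysB was at 0.084, LysD at 0.024, LysE at 0.014 and LysC at -0.33. Without S284Y 25C array 1 instead, 4 members passed as lower, LysB, LysC, LysE and LysS, where 6.77% of all probe sets did.

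In WT, 0 of 7 members passed, while 13 of 13966 probe sets did (0.0931%; 0.0644% lower and 0.0286% higher), and 3 members had an unadjusted p under 0.05, as had 6.49% of all probe sets. LysX had a difference of -1.34 ± 0.419 (2.54-fold; adjusted p = 0.50), LysC of -1.11 ± 0.295 (2.16-fold; unadjusted p = 0.00239, adjusted p = 0.339) and LysP of -0.86 ± 0.348 (adjusted p = 0.727). LysD was at -0.74, LysB at -0.61, LysE at -0.43 and LysS at -0.35. Every WT array at 30C was below every WT array at 25C for 5 of 7, LysB, LysC, LysD, LysE and LysX, against 12.2% of all probe sets, and above for 0, against 11.3%. The SE used for WT rests on the spread of all 4 groups. For LysB, LysC, LysD, LysE and LysS the SD of the log2 values was larger in S284Y at 25C than in either WT group. For LysP and LysX it was smaller than in WT at 30C. The 0 of 7 therefore does not show that members were unchanged in WT. A fit of only the 6 WT arrays called 3 members lower, LysD (adjusted p = 0.00840), LysC (0.0335) and LysB (0.0408), where 0.709% of all probe sets were called lower. LysC also passed (adjusted p = 0.0113) in the fit without S284Y 25C arrays 2 and 3, as did 0.773% of all probe sets as lower.

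Whether temperature acted differently in the genotypes was asked of the interaction, in which 0 of 7 members passed, 0 had an unadjusted p under 0.05 (8.07% of all probe sets had), and 0% of all probe sets passed. The difference for LysS was -0.78 (95% interval -1.58 to 0.02, adjusted p = 0.618) and that for LysX 0.78 (-0.50 to 2.07, adjusted p = 0.701). For LysC it was 0.34 (-0.56 to 1.24), for LysP 0.23 (-0.83 to 1.30), for LysD -0.09 (-1.39 to 1.2), for LysB -0.12 (-1.29 to 1.05) and for LysE -0.27 (-1.21 to 0.68). These intervals take in changes of more than 1.5-fold in either direction for LysB, LysD, LysE and LysP, so with 3 arrays a group the interaction was not resolved. The call of LysS in S284Y therefore does not show that LysS responded otherwise in WT.

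Within groups, the family-shared probe sets moved together over the 12 arrays. After each group's mean was taken off, the 6 pairs among LysB, LysC, LysD and LysE correlated at 0.782 to 0.961 over 12 arrays, and at 0.551 to 0.911 without S284Y 25C array 2. The mean taken off still held array 2 when that array was left out, so the values without it are not free of it. These pairs share arrays and may share probe sequence. LysS, whose probe set is gene-specific, correlated with the 4 at 0.637 to 0.768, and at 0.230 to 0.541 without that array. For LysP the values were -0.098 to 0.156, and -0.122 to 0.268 without that array. For LysX they were -0.158 to -0.0209, and 0.056 to 0.278 without it. With all arrays LysS followed the family-shared probe sets more closely than LysP did. Whether this holds apart from S284Y 25C array 2 cannot be told from these values, since the group mean held that array.

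For the family-shared probe sets and LysS, array 2 was the array of S284Y at 25C farthest from the other 2. Its signal was 3.67 times the mean of arrays 1 and 3 for LysD, 3.23 times for LysB, 2.45 times for LysE, 2.24 times for LysC and 2.04 times for LysS. It was 0.926 times that mean for LysP and 0.620 times for LysX, for which array 3 was the highest of the group. Among the 179 other probe sets with a mean of at least 20000 in arrays 1 and 3, the range of the family-shared ones, the median ratio was 1.12 and 30 had a ratio of 2 or more. With a mean of at least 5000 it was 0.890, with 43 of 714 at 2 or more, and with at least 1000, which takes in LysS, 0.91, with 92 of 4129. These levels were chosen after the data were seen. Without array 2 alone, 30C minus 25C in S284Y was -0.38 for LysC, -0.26 for LysE, -0.20 for LysD and -0.16 for LysB.

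In the RefSeq gene order of 3L, LysX comes first, followed by Aplip1, mwh, meep and CG9119, and then LysB, LysC, LysD, LysE, LysP and LysS side by side. The genotype difference was seen at the probe sets of the adjacent LysB to LysP, and not at those of LysS and LysX. Those of LysB, LysC, LysD and LysE are family-shared, so which of these genes differed is not resolved, nor is a run of changed genes shown. Of the genes between LysX and LysB and the 5 on either side of the cluster, 10 were measured, by 12 probe sets. S284Y minus WT ran from -0.78 to 0.66 at 30C and from -0.31 to 1.05 at 25C over the 12, with 0 past the threshold at either (lowest adjusted p 0.209 and 0.423), beside 1.53% of all probe sets called at 30C and 0.788% at 25C. An unadjusted p under 0.05 was found for 2 at 30C and 0 at 25C, against 11% and 13.9% of all probe sets. The largest of these values, 1.05 at 25C, belonged to 1 of the 2 probe sets of bab1, a transcription factor gene, whose other probe set was at -0.03. None of the 12 passed by limma for temperature in S284Y, in WT or for the interaction, where 4%, 0.0931% and 0% of all probe sets did. An unadjusted p under 0.05 was found for 4, 1 and 1 of them, against 25.7%, 6.49% and 8.07% of all probe sets.

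**Figure D3:**
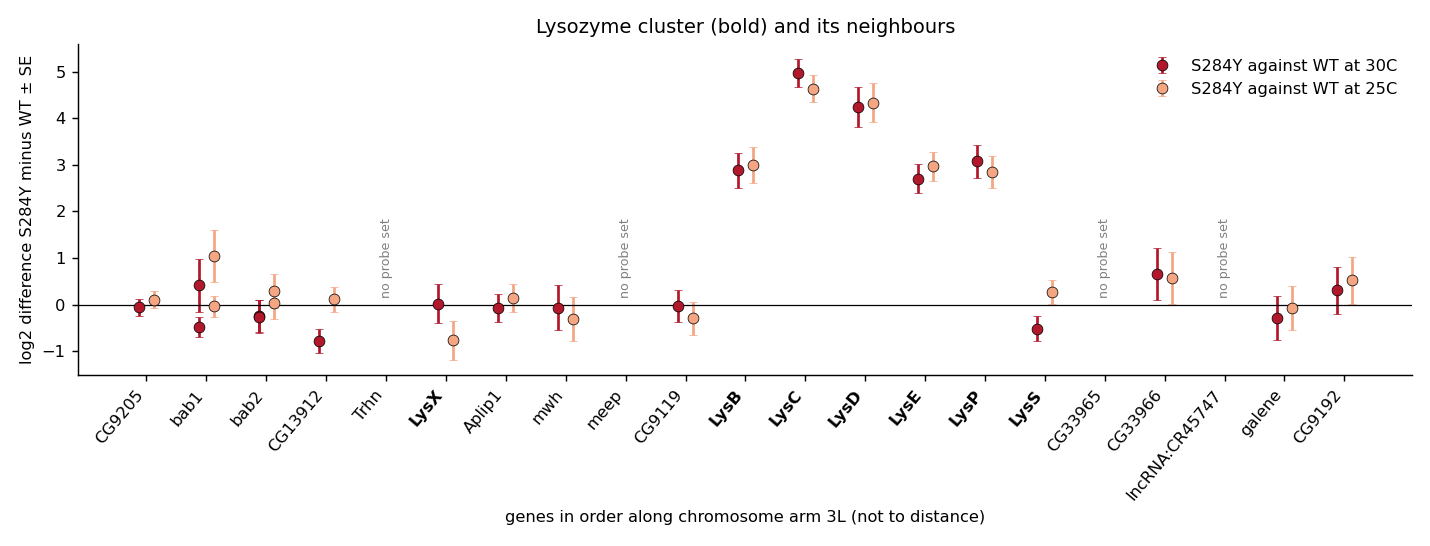
S284Y minus WT log2 difference (log2(signal + 16) scale) with its standard error, by gene order along 3L (not to distance), at 30C and 25C; lysozyme genes are in bold and neighbouring genes in plain type. The probe sets of LysB to LysP, of which those of LysB to LysE are family-shared, lie between 2.70 and 4.97. Those of LysS and LysX lie between -0.76 and 0.27, and those of the neighbours between -0.78 and 1.05.

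Lysozyme genes outside the family had no comparable difference. Of the related chicken-type genes, 5 of 6 were measured (CG7798, CG8492, CG11159, CG16756 and CG16799), and of the invertebrate-type genes 4 of 4 (CG6421, CG6426, CG6435 and CG14823). For S284Y minus WT, 0 of the 9 passed at either temperature, where 1.53% of all probe sets did at 30C and 0.788% at 25C. An unadjusted p under 0.05 was found for 11% of all probe sets at 30C and 13.9% at 25C. At 30C the chicken-type values ran from -0.87 to 0.38 (median -0.04, 1 with an unadjusted p under 0.05) and the invertebrate-type values from -1.08 to -0.17 (median -0.44, 1 with an unadjusted p under 0.05). At 25C they ran from 0.03 to 0.48 (median 0.09, 0 with an unadjusted p under 0.05) and from -0.33 to 0.83 (median 0.22, 1 such). CG6426 had the lowest value at 30C, with mean signals of 896 ± 143 in S284Y and 1893 ± 91.6 in WT (SD, n = 3 each; -1.08, adjusted p = 0.126).

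For temperature in S284Y, CG6421, an invertebrate-type lysozyme gene, fell by 1.53 ± 0.354 on the log2 scale (adjusted p = 0.0384), to 267 ± 51.1 at 30C against 867 ± 472 at 25C. Past the threshold for temperature were 4% of all probe sets in S284Y and 0.0931% in WT, where 6.49% had an unadjusted p under 0.05. In WT 0 of 9 related lysozyme genes passed, with 0 at such an unadjusted p. In S284Y 2 of 5 chicken-type and 1 of 4 invertebrate-type genes had such an unadjusted p, against 25.7% of all probe sets. CG6421 was the 1 related lysozyme gene that passed in S284Y, and its interaction did not pass (limma adjusted p = 0.603). Its call was kept under 6 of 22 alternative settings, and with S284Y 25C arrays 2 and 3 left out the value was -1.29 (adjusted p = 0.115).

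Genes of microbe recognition, of the Imd pathway and of antimicrobial peptides were measured for comparison. PGRP genes encode recognition proteins for peptidoglycan, and GNBP genes encode other pattern-recognition proteins. The Imd pathway carries the signal of peptidoglycan to the NF-kappaB factor Relish, which turns on genes of antimicrobial peptides. Of 9 measured PGRP and GNBP genes, 0 passed for S284Y against WT (median -0.24 at 30C and 0.07 at 25C). An unadjusted p under 0.05 was found for 1 at 30C and 2 at 25C. Of 15 measured genes of the Imd pathway and of antimicrobial peptides (the Imd list) 0 passed (median 0.23 at 30C and 0.27 at 25C). Of these, 2 at 30C and 6 at 25C had an unadjusted p under 0.05. Over all probe sets 1.53% passed at 30C and 0.788% at 25C, and 11% and 13.9% had such an unadjusted p. Def, which encodes the peptide defensin and was chosen after its values were seen, had the highest value of the Imd list. Its mean signals were 1431 ± 101 in S284Y and 332 ± 209 in WT at 30C (2.33, adjusted p = 0.0790), and 3315 ± 2204 in S284Y and 485 ± 232 in WT at 25C (2.68, adjusted p = 0.0583; SD, n = 3 each).

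Across temperature in S284Y, 1 PGRP gene and 1 gene of the Imd list passed, where 4% of all probe sets did. An unadjusted p under 0.05 was found for 3 of 9 PGRP and GNBP genes and 7 of 15 genes of the Imd list, against 25.7% of all probe sets. PGRP-LB, an enzyme that cuts peptidoglycan in the gut, fell by 1.06 ± 0.211 (adjusted p = 0.0260; kept under 14 of 22 alternatives), to 709.6 ± 47.6 at 30C against 1524 ± 385 at 25C. The transcription factor cad, which restrains antimicrobial peptide genes in the gut, rose by 1.05 ± 0.245 (adjusted p = 0.0394; kept under 7 of 22), to 8432 ± 904 at 30C against 4311 ± 1915 at 25C.

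Digestive genes of the midgut, the tissue of LysB, LysC, LysD, LysE and LysS, went both ways, most of them lower in S284Y at 30C. Of 39 measured trypsins, Jonah proteases, maltases and other midgut genes, 8 were lower and 1 higher in S284Y than in WT at 30C past the threshold, where 1.17% and 0.351% of all probe sets were (median -0.86, 29 of 39 negative). At 25C 2 were lower and 2 higher, where 0.473% and 0.315% were (median 0.05). Over all probe sets the median was 0.0287 at 30C and 0.00396 at 25C. At 30C 23 of the 39 had an unadjusted p under 0.05, and at 25C 13 had, against 11% and 13.9% of all probe sets. The maltase genes Mal-A1 (-1.50 ± 0.171, adjusted p = 0.000508), Mal-A6 (-1.95 ± 0.264, adjusted p = 0.00184) and Mal-B2 (-2.22 ± 0.332, adjusted p = 0.00414) had the lowest adjusted p at 30C. The 1 gene called higher at 30C was Jon66Ci, a Jonah serine protease gene, with a difference of 3.5 ± 0.639 (adjusted p = 0.0138; kept under 16 of 22 alternatives) that lay within the range of the family-shared probe sets. It averaged 1031 ± 380.2 in S284Y and 72.7 ± 11.2 in WT there. Mal-A1 averaged 2551 ± 282 in S284Y and 7285 ± 1126 in WT there (SD, n = 3 each). Called higher at 25C were Jon66Ci again (3.68 ± 0.639, adjusted p = 0.0171; kept under 17 of 22) and the lipase gene mag (1.16 ± 0.216, adjusted p = 0.0240; kept under 15 of 22). The lowest adjusted p at 25C belonged to Ser12, a serine protease gene (-3.25 ± 0.497, adjusted p = 0.00691), which averaged 65.6 ± 50.4 in S284Y and 687 ± 175 in WT. The call of Ser12 was lost in a fit of only the arrays compared (adjusted p = 0.126).

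Summed over the 39 midgut genes, the signal was 279362 to 300114 in S284Y at 30C, 363471 to 814530 in S284Y at 25C, 272087 to 319176 in WT at 30C and 341629 to 397270 in WT at 25C, with 0 genes at 0. The sum, which the genes with high signals dominate, did not separate S284Y from WT at 30C, and its highest value was S284Y 25C array 2. The mean of the 39 centred log2 values, which weights genes equally, did separate them, at -0.73 to -0.47 in S284Y and -0.02 to 0.10 in WT at 30C. In S284Y at 25C that mean was -0.00676, 0.32 and 0.61 in arrays 1, 2 and 3, against 0.21 to 0.35 in WT at 25C, and array 3 was the highest of all. Between temperatures in S284Y, 10 of 39 fell and 0 rose (median -0.93), where 2.18% of all probe sets fell and 1.82% rose. There 21 of the 39 had an unadjusted p under 0.05, against 25.7% of all probe sets. In WT 0 passed, where 0.0931% did (median -0.19), and 6 had an unadjusted p under 0.05, against 6.49% of all probe sets. Jon25Bii, a Jonah serine protease gene, had the lowest adjusted p in S284Y, falling by 1.90 ± 0.204 (adjusted p = 0.00207) to 8835 ± 908 at 30C against 33864 ± 9857 at 25C, a call lost in a fit of only the arrays compared (0.215). The part of gut content in the lysozyme signals was not tested.

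**Figure D4:**
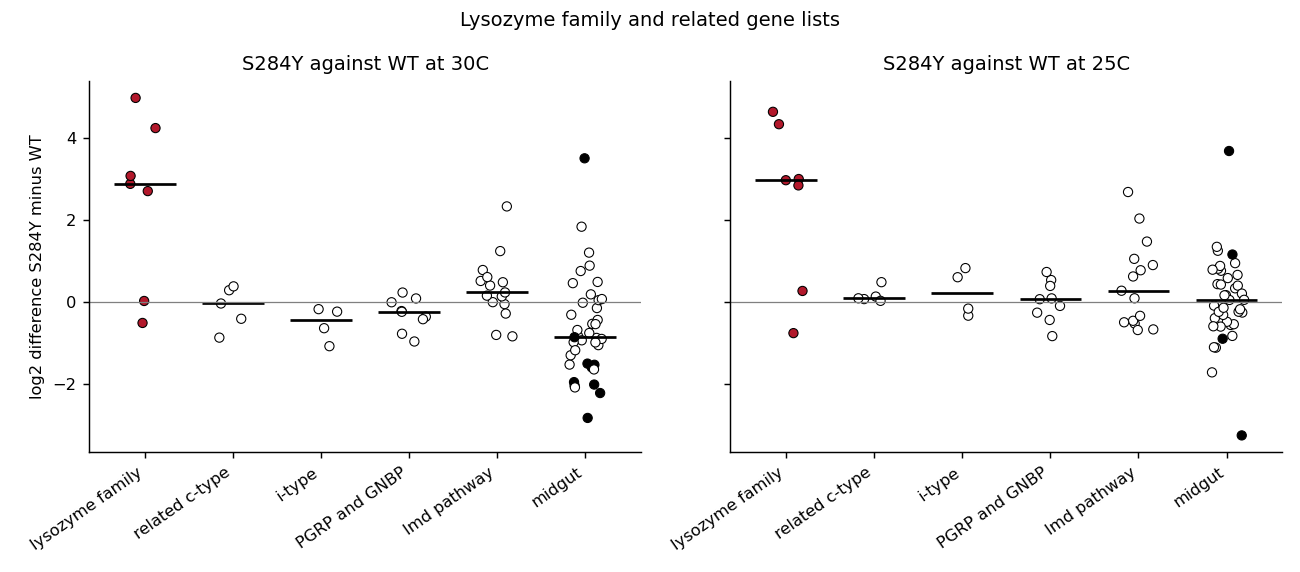
S284Y minus WT log2 difference (log2(signal + 16) scale) of each gene in the lysozyme family, the related chicken-type and invertebrate-type lysozymes, the PGRP and GNBP genes, the Imd pathway and the midgut list, at 30C and 25C; points are genes (the family in red, with no test; filled black points in other lists passed the threshold) and the line is the list's median. Medians of the other lists lie between -0.86 and 0.27, and 5 of 7 family members lie at 2.70 or above.

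Genes whose pattern was most like that of the family were sought among 7480 other probe sets by Pearson correlation over the 12 arrays, as a description. Group means were left in, so these correlations take in the genotype difference on which the family was chosen. The mean of the 4 family-shared probe sets correlated at 0.952 with LysP, 0.113 with LysS and -0.134 with LysX. Within groups, LysP correlated with the 4 at only -0.098 to 0.156. The most similar other genes were dmpd (0.955), CG11899 (0.953), CG6295 (0.953), the trypsin gene betaTry (0.935) and Ssdp (0.932), and the most opposed were CG1468 (-0.974), stil (-0.966) and Nmda1 (-0.953). Signals of betaTry averaged 30709.9 ± 2196 in S284Y and 13310.4 ± 423 in WT at 30C, and 53137 ± 33459 in S284Y and 18618 ± 1751 in WT at 25C. Those of stil, a gene of the female germline, averaged 889 ± 45.8 in S284Y and 3851 ± 1041 in WT at 30C, and 633 ± 159 in S284Y and 3661.5 ± 333 in WT at 25C.

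LysP was most like vih (0.951), Acbp2 (0.950) and CG11899 (0.947), the last of which was also among the 5 closest to the family-shared mean. LysS was most like CG13051 (0.936), flw (0.934) and CG14185 (0.930), and LysX most like alphaTub84D (0.851), Nepl4 (0.849) and CG3088 (0.848). No gene was named for both LysS and LysX or for either of them and LysP. So few were named for each that nothing is read from this.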

How the data were processed

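The authors deposited 1 linear intensity (signal) for each probe set on each array, per the file headers. Which software made it is not stated in what was used here; the even trimmed means (2% off each end) show that arrays had been scaled, and they were used as deposited. The table holds 14010 probe sets. Of these, 44 are controls and were not tested, 3 of them spike-in controls whose names hold LysX. A single gene was given for 12443 of 13966 tested probe sets, several for 327 and none for 1196; 12394 names were updated by Entrez number and 49 kept. LysC was matched by symbol. Signals were analysed as log2(signal + 16) with limma 3.58.1 in R 4.3.3 (4 group means, eBayes with trend, prior degrees of freedom 4.83) on all 12 arrays, with Benjamini-Hochberg adjustment over 13966 probe sets and a threshold of 0.05. The fit was tested on simulated data with equal spread in all groups, so not under the unequal spreads seen here. The added 16 damps differences of dim probe sets. The number of arrays limits the precision. A gene of another list is represented by its probe set with the highest mean. Named are every member and related lysozyme, up to 6 list genes per contrast past the threshold with the lowest adjusted p (of these the lowest are given), U2af50, and the genes most like the family among probe sets at or above the 40th percentile of mean log2 value (8.30). Titles number arrays 1 to 3 in each group, but same-numbered arrays did not deviate together (18 correlations, -0.13 to 0.06). Members, lists and tests were chosen with earlier results of these data known. Alternatives were offsets 1 and 64, quantile and median normalization, the dimmest 40% left out, eBayes without trend, only the groups compared, the replicate block, WT 30C array 1 moved to 25C, each array left out, and S284Y 25C arrays 2 and 3 left out.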

Additional observations from a re-analysis of the deposited data

Results flagged for a closer look

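Of the 5 related chicken-type and 4 invertebrate-type lysozyme genes measured, 3 were flagged by where their single arrays lay. In each, every array of one group lay on one side of the mean it was set against (means on the log2 scale). Every array of the other group lay on the opposite side of its own. The share of all probe sets that meet this rule was not counted, so nothing is read from the 3. None of the interactions passed in limma (adjusted p of 0.603 to 0.655). For CG16799 each S284Y array at 30C lay below the S284Y 25C mean and each WT array at 30C above the WT 25C mean, and the temperature effect in S284Y minus that in WT was -1.35 (adjusted p = 0.616). Without S284Y 25C array 3, the highest of its group, it was -0.69 (adjusted p = 0.556). Its mean signals were 232 ± 15 in S284Y and 437 ± 1.27 in WT at 30C, and 691 ± 606 in S284Y and 388 ± 20.5 in WT at 25C (SD, n = 3 each). For CG6421 each S284Y array lay below the WT mean at 30C and above it at 25C. Its genotype effect at 30C minus that at 25C was -1.46 (adjusted p = 0.603), with means of 267 ± 51.1 in S284Y and 422 ± 62.1 in WT at 30C, and 867 ± 472 in S284Y and 445 ± 86.7 in WT at 25C. Without S284Y 25C array 3 the difference of the effects was -1.06 (adjusted p = 0.437). For CG6426 each S284Y array at 30C lay below the S284Y 25C mean and each WT array at 30C above the WT 25C mean, and the temperature effect in S284Y minus that in WT was -0.74 (adjusted p = 0.655), and -0.29 without S284Y 25C array 3 (adjusted p = 0.676).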

How the results depend on the processing

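For LysB, LysC, LysD, LysE and LysP, S284Y minus WT stayed positive at both temperatures under all 22 alternatives, and for LysC it lay between 4.77 and 5.14 at 30C and between 4.14 and 4.86 at 25C. The median of the family-shared probe sets was 2.87 at 25C with S284Y 25C arrays 2 and 3 left out, and 3.30 to 3.72 at 30C when single arrays were left out. Members past the threshold for temperature in S284Y numbered 1, against 0 with eBayes without trend, only the groups compared, the replicate block, WT 30C array 1 moved, or both arrays left out, and 0 to 4 without single arrays. In WT they numbered 0, against 3 with only the groups compared and 1 with both arrays left out. The block ended the call of LysS in S284Y (adjusted p = 0.0543).

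In S284Y the temperature difference turned to 0.084 for LysB, 0.024 for LysD and 0.014 for LysE with both arrays left out. The interaction turned to 0.56 for LysB, 0.68 for LysD and 0.29 for LysE under quantile normalization and to 0.69, 0.76 and 0.44 with both arrays left out. Without single arrays it ran from -0.52 to 0.45 for LysB, -0.52 to 0.54 for LysD, -0.62 to 0.17 for LysE and -0.028 to 0.56 for LysP.

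Over the other lists, 9 genes were called for genotype at 30C, against 26 with only the groups compared, 5 with WT 30C array 1 moved, 30 with both arrays left out and 3 to 21 without single arrays. At 25C 4 were called, against 2 without trend, 0 with only the groups compared, 7 with array 1 moved and 1 to 14 without single arrays. For temperature in S284Y 13 were, against 4 without trend, 0 with only the groups compared, 7 with the block, 8 with both arrays left out and 1 to 30 without single arrays. In WT 0 were, against 3 with only the groups compared, 2 with both arrays left out and 0 to 2 without single arrays, and for the interaction 0, against 0 to 5.

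The S284Y minus WT value turned, at 25C, for CG8492 to -0.016 under quantile normalization and -0.024 with both arrays left out, for CG16799 to -0.12 and for CG16756 to -0.10 with both left out, and at 30C for CG11159 to 0.00122 under quantile normalization and 0.0063 under median centring. Without single arrays it ran, at 25C, from -0.22 to 0.25 (CG8492), -0.18 to 0.84 (CG16799), -0.22 to 0.37 (CG11159), -0.076 to 0.26 (CG7798) and -0.00113 to 0.25 (CG16756), and at 30C from -0.26 to 0.24 (CG11159), -0.60 to 0.32 (CG14823) and -0.43 to 0.091 (CG6435). The cause of these changes was not tested. Over all probe sets the calls ran from 82 to 1278 (213 as reported) for genotype at 30C, 17 to 885 (110) at 25C, 0 to 2398 (559) for temperature in S284Y, 0 to 200 (13) in WT and 0 to 84 (0) for the interaction. Same-numbered arrays share only a number.

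Family-shared probe sets do not resolve which of LysB, LysC, LysD and LysE gave the signal, groups of 3 give wide intervals, and detection calls were not used, so low signals of LysP in WT are not shown to be above background.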
